A study of Mus musculus with 57 samples.

Results

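The comparison described here is neonatal testosterone against vehicle in the adult BNST/POA, a block of mouse forebrain that joins the preoptic area (POA) to the bed nucleus of the stria terminalis (BNST). It held 9 of the 57 arrays of the series: 4 of females that received an injection of testosterone propionate at birth (XX+T) and 5 of females given the oil vehicle alone (XX), all killed on day 60. They were taken by their sample labels, with no measured value in the choice. The 5 arrays of oil-treated males (XY) of the same age and region, the day 4 arrays of the same region and the day 60 arrays of the striatum are given beside them where they bear on a result. All mice were C57BL/6J, and every day 60 animal of every group had been gonadectomized before puberty and had carried a testosterone capsule since about puberty, so the XX mice were not females with their own adult hormones. Each array held RNA pooled from 3 animals. Whole litters received 1 treatment and cage mates were litter mates, so treatment cannot be told apart from litter or cage, and the p-values below measure the spread between pools only.

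Genome-wide levels were read on Illumina MouseRef-8 arrays as log2 intensities after quantile normalization, which gives every array the same distribution of values. Across the series an array detected between 11258 and 13895 probes. In the comparison, XX+T pools 2, 4, 5 and 6 detected 11967, 12732, 13168 and 13350 probes, against 12404 to 12537 in the 5 XX pools. XX+T pools 5 and 6 stood apart from the others, and so did XY pool 6 with 13308 probes. XX+T pool 6 had a mean correlation of 0.944 with the XX arrays, against 0.9903 for pool 2, 0.9939 for pool 4 and 0.9846 for pool 5, and the array closest to it was XY pool 6 (r = 0.9903). For this reason the fold changes and counts of XX+T against XX are given with all 4 XX+T pools and, for the genes and lists the results turn on, again without pools 5 and 6, which leaves 2 XX+T pools. Striatal XX+T pool 3 carried the Y-linked Eif2s3y at 8.30, against 6.86 to 7.10 on the other striatal XX+T and XX arrays of day 60, which goes against its label, so striatal values are also given without it. In the BNST/POA Eif2s3y was not detected on any XX+T or XX array and was detected on all 5 XY arrays. Transcripts of preoptic and hypothalamic neurons were detected on every array of both female groups, among them galanin (Gal, 12.29 to 12.82), thyrotropin-releasing hormone (Trh, 12.93 to 13.29) and oxytocin (Oxt, 13.28 to 13.79).

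The BNST and the preoptic area differ between the sexes in cell number and circuitry, and a surge of testosterone around birth, acting in part after conversion to estradiol, is known to set much of this difference in rodents. Kisspeptin, the product of Kiss1, drives the neurons that release gonadotropin-releasing hormone, and in rodents its rostral cell group next to the preoptic area is larger in females than in males. Hypocretin (orexin, Hcrt) and melanin-concentrating hormone (Pmch) are peptides of separate neuron populations of the lateral hypothalamus that act on arousal, feeding and sleep, and their fibres, but few of their cell bodies, reach the preoptic area and BNST. Oligodendrocytes wrap axons in myelin, a membrane rich in galactolipids and in a small set of proteins, and this happens in the mouse forebrain largely after day 4.

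The promoters of the 3 peptide genes that carry the largest differences are shown because a hormone given at birth is the variable and because their sequence lets the start sites be compared. They were taken from RefSeq on GRCm38.p6, 250 bases before to 50 bases after the start site, at chr11:100762882-100763181 (minus strand, Hcrt), chr10:88090822-88091121 (plus strand, Pmch) and chr1:133326962-133327261 (plus strand, Kiss1). Capitals mark matches, on either strand, to the TATA box TATAAA, to the half-site GGTCA of the estrogen response element and to the half-site AGAACA of the androgen and glucocorticoid response element; no pair of these motifs overlaps in the windows shown.
Hcrt: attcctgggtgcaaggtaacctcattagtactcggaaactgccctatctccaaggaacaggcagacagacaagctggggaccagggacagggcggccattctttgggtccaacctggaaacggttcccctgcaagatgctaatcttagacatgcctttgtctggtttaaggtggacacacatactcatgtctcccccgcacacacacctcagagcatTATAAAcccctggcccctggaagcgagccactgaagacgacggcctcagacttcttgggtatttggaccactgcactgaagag
Pmch: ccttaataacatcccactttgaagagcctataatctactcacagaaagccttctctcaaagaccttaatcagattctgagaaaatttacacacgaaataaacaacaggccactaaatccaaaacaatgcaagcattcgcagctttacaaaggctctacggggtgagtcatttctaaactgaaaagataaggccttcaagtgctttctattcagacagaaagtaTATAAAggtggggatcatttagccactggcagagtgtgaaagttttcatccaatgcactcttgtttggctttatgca
Kiss1: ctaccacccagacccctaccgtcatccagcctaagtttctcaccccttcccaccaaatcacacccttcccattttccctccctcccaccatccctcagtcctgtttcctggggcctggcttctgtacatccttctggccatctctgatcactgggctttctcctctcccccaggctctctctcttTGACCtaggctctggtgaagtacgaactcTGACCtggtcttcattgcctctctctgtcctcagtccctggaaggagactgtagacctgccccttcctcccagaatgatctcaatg
Hcrt and Pmch each held a TATA box, 33 and 27 bases before the start site, as did 14.2% of the 27025 mouse promoters of the same length. The Kiss1 window held the estrogen half-site in its reverse letters (TGACC) 65 and 36 bases before its listed start site. At least 1 was held by 40.2% of all promoters. This window lies inside the span of the gene (chr1:133321887-133329722). For Hcrt and Pmch the start site is the outer end of the gene span. Whether the Kiss1 half-sites lie in a promoter used in this tissue was not tested. None of the 3 held the androgen half-site, which 19% of all promoters did. For Klk6, 2 promoters are listed, and in the first, the only 1 searched, the only match was 1 estrogen half-site, 117 bases before the start. In the promoter of Ugt8a there was no match. These are matches of letters in a short window and say nothing about binding.

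Of 13731 probes tested with limma, 5 differed between XX+T and XX in the adult BNST/POA at a Benjamini-Hochberg adjusted p below 0.05, which is 0.0364% of the probes. Of those named here, Hcrt rose, and Kiss1, Klk6 and Ugt8a fell, in XX+T females. Without pools 5 and 6 no probe passed, and the smallest adjusted p was 0.525 (480 probes had an unadjusted p below 0.05, against 888 with all pools). Each of these 4 genes kept its direction without these pools. This outcome was fixed in advance, because their XX+T and XX arrays did not overlap. Leaving out 1 array at a time gave 5 calls without XX+T pool 4 (2 of them among the 5 probes), 2 without XX+T pool 2, 2 without XX pool 5, 1 without XX pool 4, and 0 without XX+T pool 5, XX+T pool 6 or XX pools 1, 2 or 3. In each of the 4 genes no XX+T array entered the range of the XX arrays, a pattern met, with the higher level in XX+T, by 48 of 9573 genes (0.501%) and, with the lower level, by 108 (1.13%). Over all 9573 genes measured the median log2 fold change was -0.01 with all pools and -0.01 without pools 5 and 6.

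**Figure D1:**
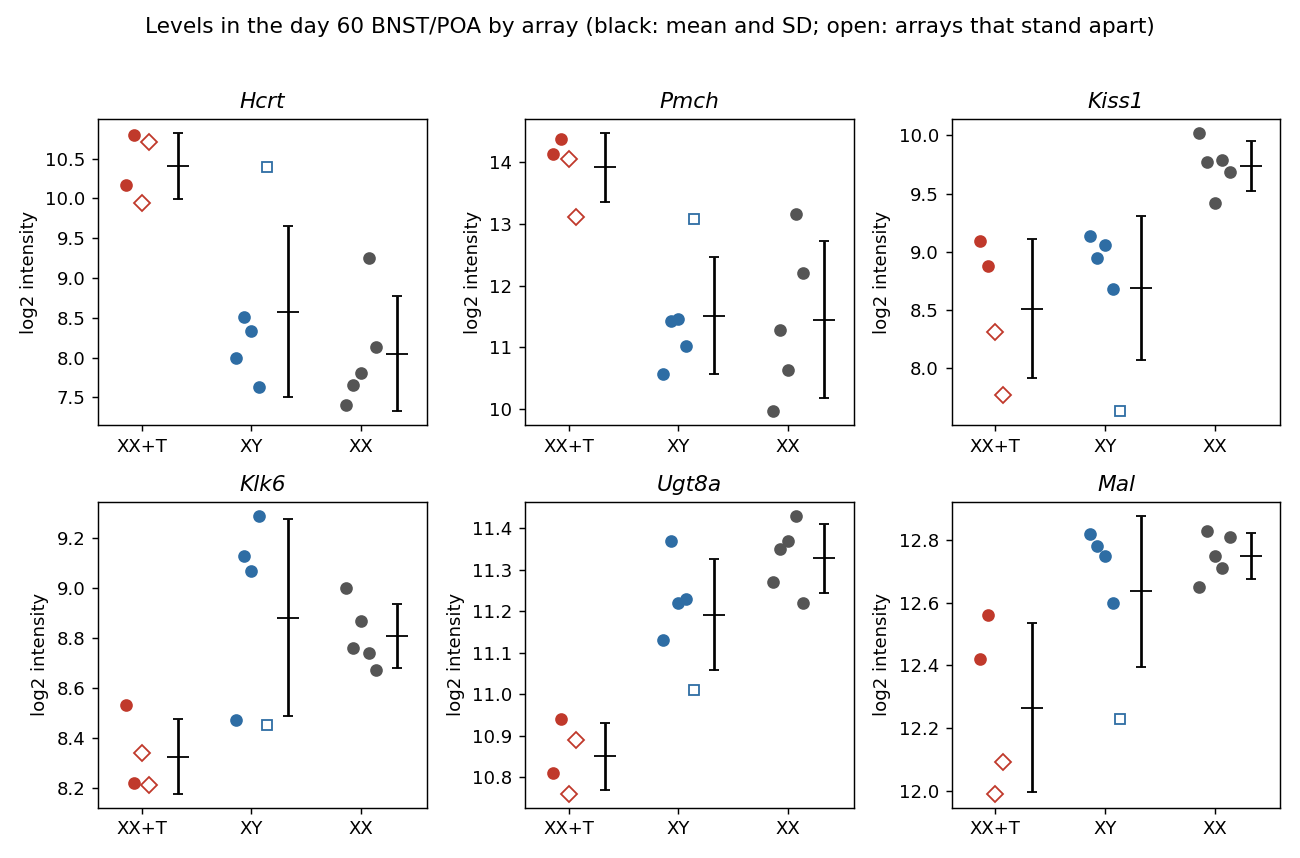
Log2 intensity (vertical axes, each on its own range) of Hcrt, Pmch, Kiss1, Klk6, Ugt8a and Mal in the day 60 BNST/POA, 1 point per array, in XX+T (4 arrays), XY (5) and XX (5); black marks are means with SD, and open symbols are XX+T pools 5 and 6 and XY pool 6. For Hcrt, Kiss1, Klk6, Ugt8a and Mal every XX+T array lies outside the range of the XX arrays, whereas for Pmch XX+T pool 6 at 13.11 lies below XX pool 4 at 13.16.

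Hcrt, the precursor of both hypocretin peptides, was the largest of these changes (probe ILMN_2592983, gene at chr11:100761693-100762931, GRCm38.p6). XX+T pools 2, 4, 5 and 6 read 10.17, 10.80, 9.94 and 10.71, against 7.40, 7.65, 7.81, 9.25 and 8.13 in XX pools 1 to 5. All 4 XX+T pools were above all XX pools, and XX pool 4 was the highest of its group by more than 1 log2 unit. The means were 10.40 ± 0.42 in XX+T (SD, n = 4) and 8.05 ± 0.72 in XX (SD, n = 5), a log2 fold change of 2.35 ± 0.37 (SE; 5.11-fold; limma, adjusted p = 0.0261). Without pools 5 and 6 the log2 fold change was 2.44 ± 0.47 (SE) and the adjusted p 0.525.

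Pmch, the precursor of melanin-concentrating hormone (chr10:88091072-88092374), stood at 14.13, 14.38, 14.05 and 13.11 in XX+T pools 2, 4, 5 and 6, against 9.96, 11.28, 10.63, 13.16 and 12.21 in XX pools 1 to 5. The groups overlapped through XX+T pool 6 and XX pool 4. The log2 fold change was 2.47 ± 0.65 (SE), larger than that of Hcrt, but with the wide spread of the XX pools it did not pass the test (limma, unadjusted p = 0.00135, adjusted p = 0.563). Without pools 5 and 6 it was 2.81 ± 0.83 (SE; adjusted p = 0.999).

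Both peptides were high on the same arrays. Within XX, pools 4 and 5 had the highest values of both, and within XY, pool 6 had the highest values of both (10.40 for Hcrt and 13.08 for Pmch), against 7.63 to 8.51 and 10.56 to 11.45 in the other 4 XY pools. The day 60 striatum, which holds neither cell type, showed the same pairing: Hcrt read 7.16, 10.12, 7.35 and 9.86 and Pmch 7.78, 13.50, 10.35 and 13.25 in striatal XX+T pools 3, 4, 5 and 6, against 7.19 to 7.70 and 9.08 to 11.30 in striatal XX pools. Striatal XX+T pools 4 and 6 were thus high for both peptides and pool 3 for neither. In the striatum Hcrt had a log2 fold change of 1.24 and Pmch of 1.20, and the difference of the treatment effect between regions did not pass for Hcrt (limma interaction, 1.11 ± 0.73 SE, adjusted p = 1). Without striatal XX+T pool 3 the striatal log2 fold changes were 1.73 for Hcrt and 2.34 for Pmch, and neither passed (adjusted p = 0.0877 each).

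**Figure D2:**
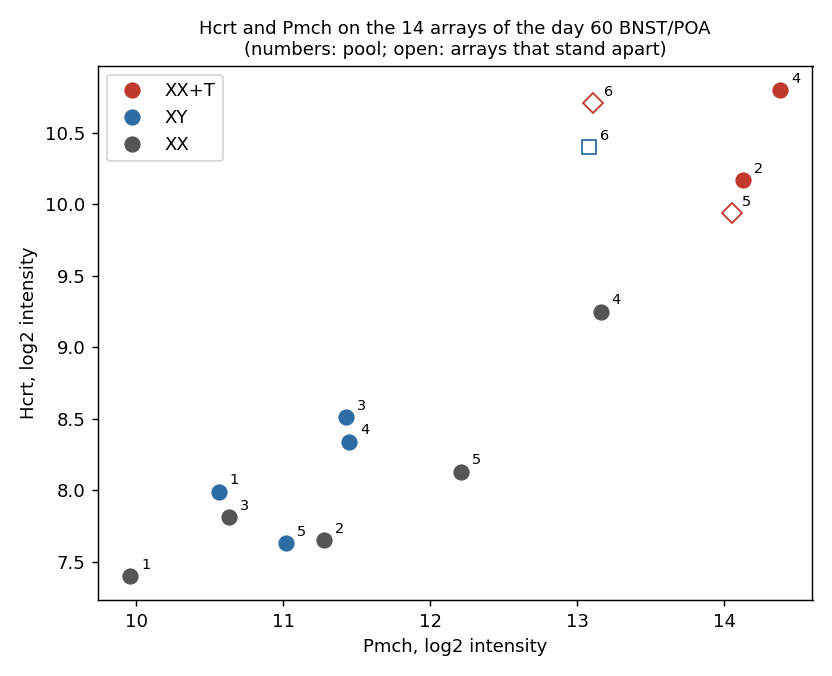
Hcrt against Pmch (both as log2 intensity) on the 14 arrays of the day 60 BNST/POA, with the pool number beside each point; open symbols are XX+T pools 5 and 6 and XY pool 6. All 4 XX+T arrays lie at the upper right, together with XY pool 6, and XX pool 4 is the nearest XX array.

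The other members of a list of 10 genes of lateral hypothalamic neurons, of which 9 were measured, differed less. The mean level of all 9, as log2 intensity minus its mean over the XX arrays, was 0.54, 0.63, 0.66 and 0.50 in XX+T pools 2, 4, 5 and 6, against -0.17 to 0.35 in the 5 XX pools. Hcrt and Pmch carried this mean: over the other 7 genes it was 0.01, -0.01, 0.20 and 0.03 in XX+T pools 2, 4, 5 and 6, against -0.09 to 0.09 in XX, so that only pool 5 lay outside the XX range. Of the 9, 2 had an unadjusted p below 0.05, Hcrt and Pmch, both higher, against 2.79% of all genes. Prodynorphin (Pdyn), which hypocretin neurons also make, differed by 0.26 ± 0.18 (SE), and by -0.13 without pools 5 and 6; Cartpt, the precursor of a peptide made by Pmch neurons, differed by 0.18 ± 0.15 (SE), and by 0.15 without pools 5 and 6. Neither passed the test. How far the dissected blocks differed in lateral hypothalamic tissue was not tested, and in a bulk sample fewer cells of a type and less RNA per cell cannot be told apart.

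Kiss1 (ILMN_2735829, chr1:133321887-133329722) moved in the other direction. XX+T pools 2, 4, 5 and 6 read 9.09, 8.88, 8.31 and 7.77, against 10.02, 9.77, 9.42, 9.79 and 9.69 in XX pools 1 to 5. Every XX+T pool was below every XX pool, and pools 5 and 6 were the lowest. The means were 8.51 ± 0.60 in XX+T (SD, n = 4) and 9.74 ± 0.22 in XX (SD, n = 5), a fall by 1.22 ± 0.21 (SE) on the log2 scale or 2.34-fold (limma, adjusted p = 0.0405). Without pools 5 and 6 the log2 fold change was -0.75 ± 0.17 (SE; 1.68-fold; adjusted p = 0.579).

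In XY, Kiss1 read 9.14, 8.95, 9.06, 8.68 and 7.63 in pools 1, 3, 4, 5 and 6, so all 5 male pools were also below all XX pools. XY against XX had a log2 fold change of -1.05 (limma, unadjusted p = 0.000107, adjusted p = 0.244), which did not pass the test. Both comparisons use the same XX arrays. Kiss1 was low on all arrays of the other age and region, at 7.12 to 7.94 in the day 4 BNST/POA and 7.10 to 7.64 in the day 60 striatum of XX+T and XX females. The log2 fold change between XX+T and XX was -0.17 at day 4. The difference between the effects at day 60 and at day 4 was -1.05 and did not pass (limma interaction, adjusted p = 0.662).

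Of 41 hypothalamic neuropeptide and hormone genes listed, 26 were measured and 2 passed the test over all probes (Hcrt higher, Kiss1 lower). At an unadjusted p below 0.05, 2 of the 26 were higher and 2 lower (7.69% each), against 2.79% and 3.54% of all genes, with a list median of -0.11. Leaving out pools 5 and 6 gave 4 higher and 1 lower (15.4% and 3.85%, against 1.65% and 1.89% of all genes), with a median of 0.03, and leaving out XX+T pool 2 alone gave 2 higher and 6 lower (7.69% and 23.1%, against 10.1% and 9.5%). The fourth gene besides Hcrt, Pmch and Kiss1 was neuromedin B (Nmb), with a log2 fold change of -0.20 ± 0.08 (SE), and -0.18 without pools 5 and 6. Several peptides that mark sex differences or neuroendocrine cells of these nuclei were close in both groups. Vasopressin (Avp), the male-biased peptide of the BNST, read 12.57, 12.49, 12.66 and 11.92 in XX+T pools 2, 4, 5 and 6, against 12.35 to 12.69 in XX, a log2 fold change of -0.10 ± 0.25 (SE). For Gal it was 0.01 ± 0.12, for oxytocin -0.06 ± 0.20 and for somatostatin (Sst) 0.10 ± 0.11 (SE each). The values without pools 5 and 6 were 0.03 for Avp, -0.09 for Gal, -0.24 for Oxt and 0.06 for Sst.

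**Figure D3:**
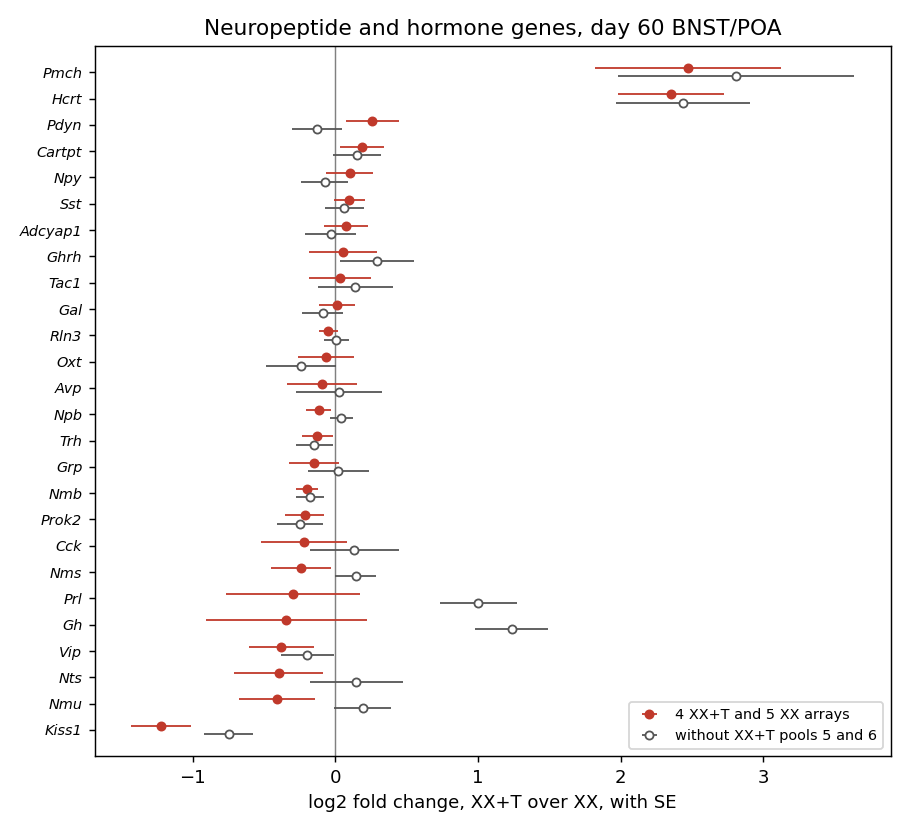
Log2 fold change, XX+T over XX, with SE (horizontal axis) for the 26 neuropeptide and hormone genes measured, with all 4 XX+T arrays (filled) and without XX+T pools 5 and 6 (open). Pmch and Hcrt lie near 2.5 in both, Kiss1 lies at -1.22 and -0.75, and 14 of the 26 change sign, Gh and Prl by the widest step.

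Of the 26 peptide and hormone genes, 14 changed sign when pools 5 and 6 were left out. Neurotensin (Nts) differed by -0.40 with all pools and 0.15 without them, and neuromedin U (Nmu) by -0.41 and 0.19. The widest steps were those of growth hormone (Gh) and prolactin (Prl), hormones of the anterior pituitary. Gh read 12.16, 11.19, 9.35 and 7.69 in XX+T pools 2, 4, 5 and 6, against 10.88, 10.09, 10.12, 10.21 and 10.90 in XX pools 1 to 5, so that 2 XX+T pools were above all XX pools and 2 below. Its log2 fold change was -0.34 ± 0.57 (SE) with all pools and 1.23 without pools 5 and 6; that of Prl, which had 10.84, 9.77, 8.12 and 7.29 in XX+T, was -0.30 ± 0.47 (SE) and 1.00. Neither passed the test in either fit. Vasoactive intestinal peptide (Vip), a peptide of the suprachiasmatic nucleus, was, among the female arrays, low on XX+T pool 6 alone, with 9.43, against 10.47 to 10.93 in the other XX+T pools and 10.53 to 10.86 in XX.

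Of the 3 genes that fell, 2 are genes of oligodendrocytes and myelin. Of 40 such genes listed, 30 were measured. The list was chosen with earlier results of these data known and holds Klk6 and Ugt8a, so its counts are not independent of them. Klk6 and Ugt8a passed the test over all probes, both lower in XX+T, and 9 of 30 (30%) had an unadjusted p below 0.05 with a lower level in XX+T and 0 with a higher one, against 3.54% lower and 2.79% higher among all genes. Without pools 5 and 6 the count was 11 lower (36.7%) and 0 higher, against 1.89% and 1.65% of all genes. The list median was -0.10 with all pools and -0.20 without pools 5 and 6. Below 0 were 23 and 24 of the 30 genes, against 52.4% and 51.7% of all genes, but 11 of the 30 changed sign between these fits. With arrays centred on their medians in place of quantile normalization 7 were lower (23.3%, against 1.37% of all genes) and 0 higher (against 3.47%). Without XX+T pool 2 alone 11 were lower and 1 higher (36.7% and 3.33%, against 9.5% and 10.1% of all genes), and 18 of the 30 were below 0.

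Ugt8a (ILMN_1239557, chr3:125865272-125938682) makes galactosylceramide, the main galactolipid of myelin. Its level was 10.81, 10.94, 10.76 and 10.89 in XX+T pools 2, 4, 5 and 6, against 11.27, 11.35, 11.37, 11.43 and 11.22 in XX pools 1 to 5. No pool of one group entered the range of the other, and pools 5 and 6 lay among the other XX+T pools. It fell by 0.48 ± 0.07 (SE) on the log2 scale, 1.39-fold (limma, adjusted p = 0.0261), with -0.45 ± 0.09 without pools 5 and 6 (adjusted p = 0.525). XY pools ranged from 11.01 to 11.37. In the striatum the log2 fold change of XX+T over XX was -0.52 (-0.40 without striatal XX+T pool 3), of similar size, and at day 4 it was -0.03.

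Klk6 (ILMN_2955509, chr7:43824438-43832027), a secreted protease made by mature oligodendrocytes, read 8.53, 8.22, 8.34 and 8.21 in XX+T pools 2, 4, 5 and 6, against 9.0, 8.76, 8.87, 8.74 and 8.67 in XX pools 1 to 5. Again the groups did not overlap. It fell by 0.48 ± 0.07 (SE), 1.40-fold (limma, adjusted p = 0.0261), and the log2 fold change without pools 5 and 6 was -0.43 ± 0.09 (adjusted p = 0.525). In XY it ranged from 8.45 to 9.29, with pools 1 and 6 at the low end. Klk6 was not detected on any day 4 array of XX+T or XX females (6.83 to 6.95), and these values share in the estimate of its spread; with the day 60 arrays alone its SE was 0.0978 and the adjusted p 0.713.

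Other myelin genes shared the direction without passing the test. Mog, a glycoprotein of the outer myelin surface (chr17:37010740-37023398, probe ILMN_2615034), read 11.11, 11.16, 11.01 and 11.27 in XX+T, against 11.35 to 11.63 in XX (log2 fold change -0.34 ± 0.07 SE, limma adjusted p = 0.161), and -0.35 without pools 5 and 6; its other, brighter probe gave -0.30. Mal, a raft protein of compact myelin (chr2:127633226-127656695), read 12.42, 12.56, 11.99 and 12.09, against 12.65 to 12.83 in XX (-0.48 ± 0.09 SE, adjusted p = 0.149), and -0.26 without pools 5 and 6; its other, dimmer probe gave -0.44 and overlapped. On the probes given, the XX+T arrays lay below all XX arrays, and for Mal pools 5 and 6 were the lowest. The gene for a sulfotransferase that acts on the product of Ugt8a, Gal3st1, differed by -0.28 ± 0.10, the ceramide synthase Cers2 by -0.25 ± 0.09, and the node-associated link protein Hapln2 by -0.49 ± 0.11 (SE each). The differences without pools 5 and 6 were -0.32 for Gal3st1, -0.20 for Cers2 and -0.28 for Hapln2.

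Other members of the list differed less or changed with the arrays. Mbp, which encodes myelin basic protein, read 14.88 to 15.16 in XX+T, against 14.92 to 15.06 in XX (log2 fold change 0.02 ± 0.25 SE, and -0.08 without pools 5 and 6), and Mobp differed by -0.09 ± 0.12 (SE) and by -0.10. Mag, a glycoprotein of the inner myelin membrane, read 11.93, 12.24, 12.33 and 13.19 in XX+T pools 2, 4, 5 and 6, against 12.28 to 12.66 in XX. It differed by 0.01 with all pools and by -0.33 without pools 5 and 6, and the iron carrier Trf by 0.00 and -0.46. For Opalin, a membrane protein of mature oligodendrocytes, the order was turned: -0.43 with all pools and -0.08 without pools 5 and 6. The mean level of the list, relative to XX, was -0.28, -0.11, -0.21 and 0.04 in XX+T pools 2, 4, 5 and 6, against -0.05 to 0.02 in XX. Of the 4 XX+T pools, 3 were below all XX pools and pool 6 was above them. The XY arrays showed the same pattern: XY pools 1, 3, 4, 5 and 6 were at -0.19, -0.08, -0.14, -0.14 and 0.07. The lower mean of the list was thus not particular to XX+T. Oligodendrocyte precursor genes (8 measured) had 0 at an unadjusted p below 0.05.

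**Figure D4:**
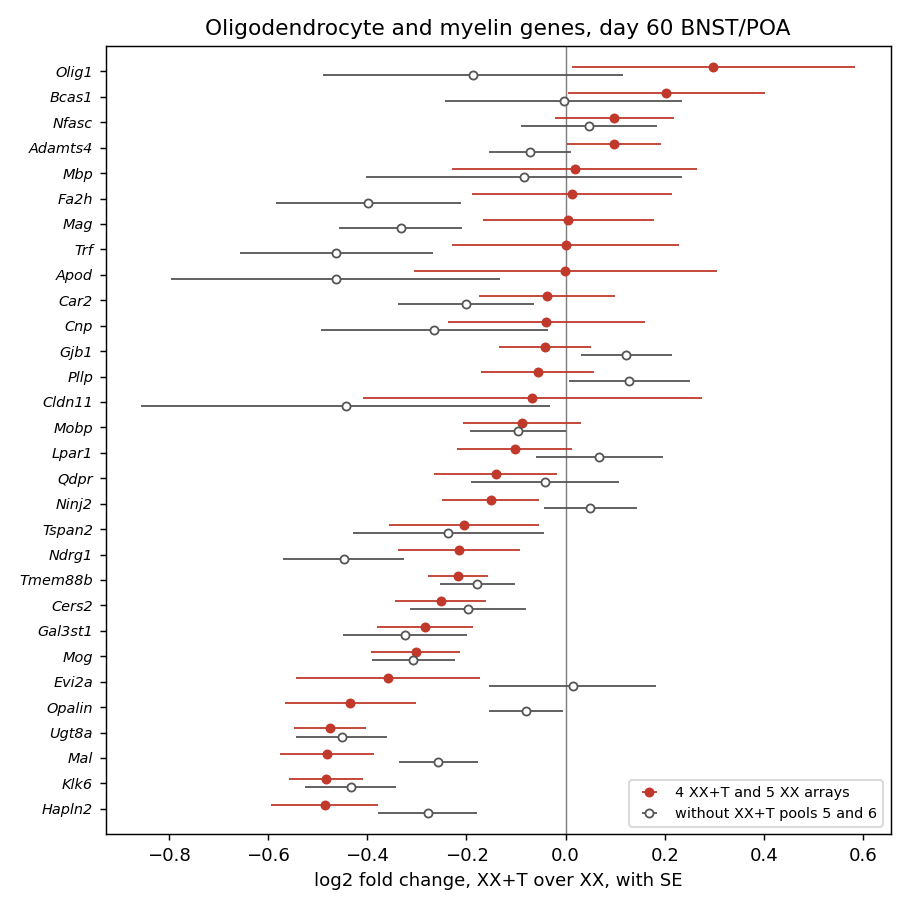
Log2 fold change, XX+T over XX, with SE (horizontal axis) for the 30 oligodendrocyte and myelin genes measured, with all 4 XX+T arrays (filled) and without XX+T pools 5 and 6 (open); for Mog the brighter probe is drawn. Klk6 and Ugt8a lie near -0.48 with all pools and near -0.44 without pools 5 and 6. Of the 30 genes, 11 change sign, among them Fa2h, Mag and Trf, which are below 0 only in the second set.

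The 10 probes next in order of p, none of which passed, were 6 at lower and 4 at higher levels in XX+T. The lower ones were Wdr60, a subunit of the dynein motor of cilia, the 4 genes Mal, Mog, Hapln2 and Tmem125, and Fxyd5, a regulator of the sodium pump. Wdr60 (chr12:116206261-116263046) was nearest to the threshold, at 8.03, 8.05, 8.13 and 7.94 in XX+T pools 2, 4, 5 and 6, against 8.33, 8.56, 8.52, 8.54 and 8.35 in XX pools 1 to 5 (log2 fold change -0.42 ± 0.08 SE, limma adjusted p = 0.0735), and it gave the same value, -0.42, without pools 5 and 6. The higher ones were Sgk1, a kinase induced by glucocorticoids, Efr3a, a membrane anchor of a lipid kinase, Stxbp4, a syntaxin-binding protein, and Net1, a guanine nucleotide exchange factor. Sgk1 read 12.56, 12.70, 12.28 and 13.09 in XX+T, against 11.66 to 12.33 in XX, so that only pool 5 entered the XX range; the log2 fold change was 0.67 ± 0.15 (SE; adjusted p = 0.301) and 0.64 without pools 5 and 6. Sgk1 was also the only 1 of 17 immediate early genes measured with an unadjusted p below 0.05 in either fit.

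Genes of steroid hormone action were read next, since the treatment was a steroid. Of 42 steroid receptors, enzymes and coregulators listed, 21 were measured; Esr1, Esr2 and Cyp19a1 were not among them and were not analysed here. None passed the test, and 2 of 21 had an unadjusted p below 0.05, both lower in XX+T (9.52%, against 3.54% of all genes). Leaving out pools 5 and 6 gave 1 lower (4.76%, against 1.89%), and leaving out XX+T pool 6 alone gave 0. These were the hydroxysteroid dehydrogenases Hsd3b7, at 10.64, 10.70, 10.49 and 9.47 in XX+T, against 10.70 to 10.88 in XX, and Hsd3b2, at 10.87 to 11.20 in XX+T, against 11.15 to 11.75 in XX. Hsd3b7 differed by -0.48 with all pools and -0.14 without pools 5 and 6, and was lowest on pool 6, and Hsd3b2 by -0.37 and -0.27. The progesterone receptor (Pgr), a classical target of estradiol in this region, differed by -0.02 ± 0.08 (SE), and by -0.06 without pools 5 and 6.

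Peptide receptors gave 1 of 21 measured higher at an unadjusted p below 0.05 (4.76%, against 2.79% of all genes) and 0 lower, and without pools 5 and 6 they gave 0 higher and 2 lower (9.52%, against 1.89%). Without XX+T pool 2 alone 3 were higher (14.3%, against 10.1% of all genes), and without pool 5 alone 0 (against 1.67%). The 1 higher with all pools was the melanocortin receptor Mc3r, detected on 3 of 4 XX+T and 3 of 5 XX arrays, with a log2 fold change of 0.23 ± 0.08 (SE) with all pools and 0.10 without pools 5 and 6. Of 11 measured genes of a list of known sex-dimorphic genes of the mouse hypothalamus and amygdala, 0 had an unadjusted p below 0.05 with all pools, and 1, Sytl4, without pools 5 and 6. The synaptotagmin-like gene Sytl4 read 11.08, 11.25, 10.99 and 9.95 in XX+T pools 2, 4, 5 and 6, against 10.40 to 10.83 in XX. It was thus above all XX pools in 3 of the 4 XX+T pools and below them in pool 6, with a log2 fold change of 0.12 ± 0.18 (SE), and 0.46 without pools 5 and 6 (adjusted p = 0.707). None of 16 measured regulators of preoptic, BNST and hypothalamic development had an unadjusted p below 0.05 in either fit. Without XX+T pool 2 alone 1 was higher (6.25%, against 10.1% of all genes).

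Among vascular genes, Cldn5, the claudin of the tight junctions of the blood-brain barrier, was lower on every XX+T array: 10.23, 10.35, 10.05 and 10.51 in pools 2, 4, 5 and 6, against 10.97, 10.74, 11.14, 11.25 and 10.95 in XX pools 1 to 5. Its log2 fold change was -0.72 ± 0.17 (SE) and did not pass (limma, adjusted p = 0.359); it was -0.72 without pools 5 and 6 and -1.07 in the striatum (-0.96 without striatal XX+T pool 3). In XY pools 1, 3, 4, 5 and 6 Cldn5 read 10.60, 10.87, 10.96, 10.44 and 10.51. XY pools 1, 5 and 6 were thus also below every XX pool, and XY pools 3 and 4 were not. Of 16 endothelial genes measured, 2 were lower in XX+T at an unadjusted p below 0.05, Cldn5 and Egfl7 (12.5%, against 3.54% of all genes). The list median was -0.02 with all pools and -0.18 without pools 5 and 6. The mean level of the list, relative to XX, was -0.30, -0.21 and -0.19 in XX+T pools 2, 4 and 5 and 0.23 in pool 6.

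Several broad gene groups differed among the XX+T arrays. The 25 synaptic genes measured had a mean level of -0.24, 0.03, 0.27 and 0.83 in XX+T pools 2, 4, 5 and 6 relative to XX, against -0.08 to 0.08 in the XX pools. Synapsin 1 (Syn1), a coat protein of synaptic vesicles, read 10.39, 10.94, 11.96 and 13.23 in the same pools, against 10.63 to 11.03 in XX, and 13.34 on XY pool 6. The 20 astrocyte genes showed -0.25, -0.03, 0.22 and 0.47. In both lists pool 2 was lowest and pool 6 highest, with 0 genes at an unadjusted p below 0.05 when all pools were used. These counts rested on single pools: without pool 2, 9 of the 25 synaptic genes (36%) and 3 of the 20 astrocyte genes (15%) were higher, against 10.1% of all genes, and without pool 4, 4 synaptic genes (16%) were higher, against 5.15%. In the fit without pools 5 and 6, 1 gene of each list was lower.

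Genes of energy and protein production ran the other way. The 73 genes of the respiratory chain had a mean level of 0.04, 0.04, -0.19 and -0.38 in XX+T pools 2, 4, 5 and 6, and 63 of them were below 0 in the comparison with all pools, but 29 without pools 5 and 6. For the 56 ribosomal protein genes 46 and 30 were below 0. Thalamic genes (7 measured) stood at 1.39 on pool 6 and -0.56 on pool 5. The part of cell composition or RNA quality in these shifts was not tested.

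**Figure D5:**
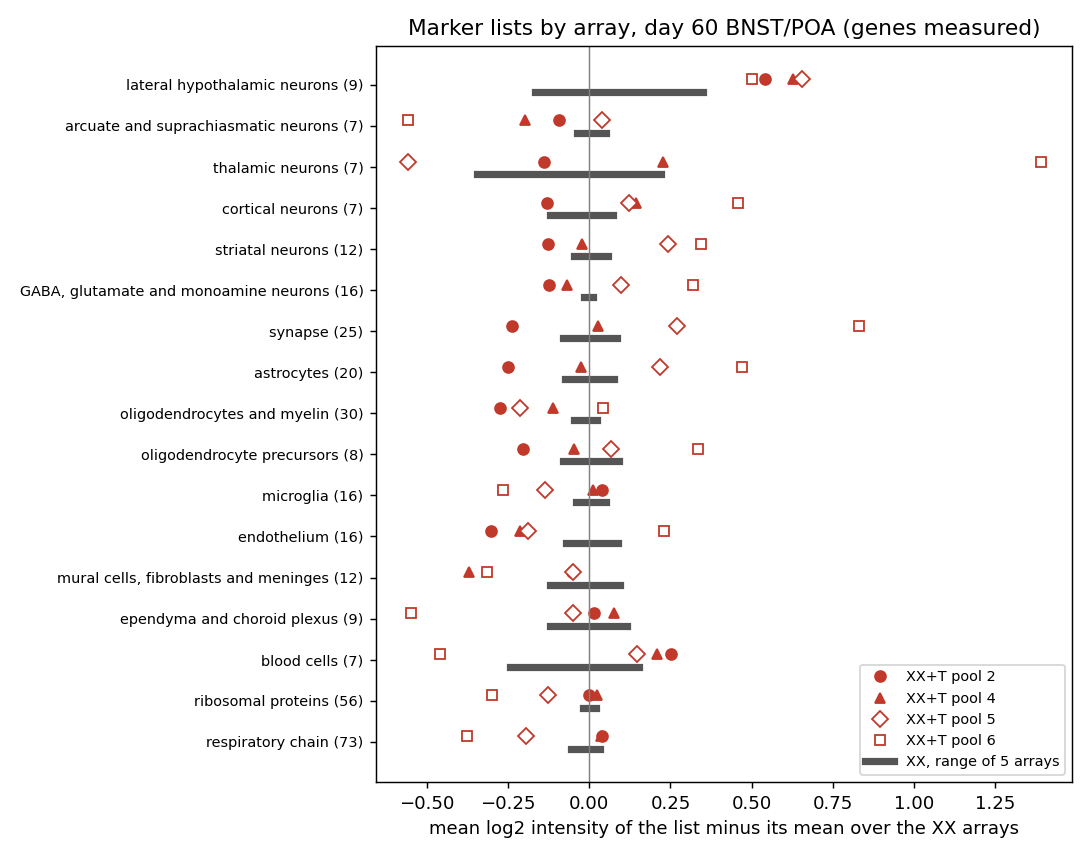
Mean log2 intensity of each marker list minus its mean over the XX arrays (horizontal axis), for the 4 XX+T arrays (symbols) and the range of the 5 XX arrays (bars), with the number of genes measured in brackets. The mean of the lateral hypothalamic list lies above the XX range on all 4 XX+T arrays through Hcrt and Pmch, while the synapse list runs from -0.24 on pool 2 to 0.83 on pool 6.

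The study lists genes whose DNA methylation it called higher or lower in XX+T in the adult BNST/POA; methylation was not analysed here, and the lists come from tissue of the same study and are not independent. Of 705 genes listed as more methylated, 362 were measured, and 16 (4.42%) were higher and 17 (4.70%) lower in XX+T RNA at an unadjusted p below 0.05, against 2.79% and 3.54% of all genes. Without pools 5 and 6 these were 7 and 7 (1.93% each), against 1.65% and 1.89%. Leaving out XX+T pool 2 alone gave 49 and 29 (13.5% and 8.01%, against 10.1% and 9.5% of all genes). Leaving out pool 6 alone gave 4 and 9 (1.1% and 2.49%, against 1.27% and 1.64%). Of 35 listed as less methylated, 15 were measured, and 0 were higher and 1 lower (6.67%, against 3.54% of all genes). Without XX+T pool 2 alone 3 were higher and 2 lower (20% and 13.3%, against 10.1% and 9.5%). None of them passed the test over all probes.

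None of the differences at day 60 could be shown to be limited to that age or to this region. At day 4, when the pups had received the hormone 4 days before, no probe passed the test between XX+T and XX (0%; limma, smallest adjusted p = 0.831; 507 probes at an unadjusted p below 0.05). The treatment effect differed between day 60 and day 4 for 0 probes (0% of 13731; smallest adjusted p = 0.387; 643 at an unadjusted p below 0.05), and between BNST/POA and striatum for 0 probes (0%; smallest adjusted p = 1; 354 at an unadjusted p below 0.05). Hcrt differed by 0.09 at day 4, where XX+T pools read 7.91 to 9.18 and XX pools 7.63 to 9.09. Without BNST/POA XX+T pools 5 and 6 both counts were again 0. The count between regions was also 0 without striatal XX+T pool 3 (386 at an unadjusted p below 0.05). Of the 4 genes, Ugt8a had a striatal log2 fold change of a size near that in the BNST/POA, and Klk6 and Kiss1 had -0.13 and -0.08 (-0.11 and -0.04 without striatal XX+T pool 3).

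The XY arrays place the 4 genes beside the male level. Means were 10.40, 8.57 and 8.05 for Hcrt in XX+T, XY and XX, and 8.51, 8.69 and 9.74 for Kiss1. For Klk6 they were 8.32, 8.88 and 8.81, and for Ugt8a 10.85, 11.19 and 11.33. Among these, only for Kiss1 did XX+T and XY lie together on the same side of every XX array. Between XY and XX, 3 probes passed the test (0.0218%), all higher in XY, and none of them was one of these 4 genes.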

How the data were processed

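RNA pools of the BNST/POA and striatum of XX, XX+T and XY mice were hybridised to Illumina MouseRef-8 arrays by the authors, who deposited 1 average signal intensity and 1 detection p-value for each of 25697 probes and array. The authors also deposited log2 values, made by log2 transformation, removal of outlier arrays, quantile normalization and a detection filter. Here the intensities of the 57 arrays were log2 transformed and quantile normalized, and the 13731 probes with a detection p below 0.05 on at least 20 arrays were kept. They differed from the authors' log2 values (column medians 8.56) by at most 5e-09. Of the deposited intensity columns, the signal and the detection p-value of each of the 57 arrays were used. Groups were taken from the sample labels, and no array was a copy of another (0 identical pairs).

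Differences were tested with limma 3.58.1 in R 4.3.3, on the XX and XX+T arrays of both ages of the BNST/POA, by the contrast of interest, with Benjamini-Hochberg adjustment over all probes; a probe was called at an adjusted p below 0.05, and 1 of the probes called is not reported here. The striatum and XY were fitted in the same way, and differences between ages or regions as interaction terms. The scripts were tested on simulated data. For lists, each of 9573 genes was represented by its brightest probe. Of the probes kept, 12944 had 1 gene in the platform annotation, 0 several and 787 none, of which 13 were named from the study's expression table. The members and lists were chosen with earlier results of these data known. The genes named were those called, the 10 next by p, the 4 with the largest change of each list, and those of the neuropeptide, steroid and sex-marking lists; the other myelin genes, Sytl4, Egfl7, Th and P2ry12 were chosen after their values were seen where they were not among these. Pool numbers did not pair the groups: deviations of XX+T and XX pools of the same number correlated at 0.06, -0.18 and -0.24 for pools 2, 4 and 5. No source used here gives the slide of an array. The number of arrays limits the precision. Alternatives covered the arrays and groups in the fit, background correction, normalization, the filter, array weights, the spread model, a replicate block and each array left out in turn.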

Additional observations from a re-analysis of the deposited data

Results flagged for a closer look

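The 68 probes looked at were those called, the 10 next by p, and those named of the neuropeptide, lateral hypothalamic and myelin lists. Each was looked at in XX+T and in XX (136 pairs of probe and group). In 9 pairs 1 array had a gap to the rest above Dixon's critical value. Chance gives about 1 in 20 groups, so this number is little above that rate. That the genes flagged were peptide or myelin genes follows largely from the choice of probes. In XX+T there were 4, all of them low values of genes of peptides or of a peptide receptor. Neuromedin S (Nms) read 8.24 on pool 6, against 9.40 to 9.62 on the other XX+T pools, and growth hormone-releasing hormone (Ghrh) read 8.80 on pool 6, against 9.69 to 9.81. Cholecystokinin (Cck) read 9.67 on pool 5, against 10.93 to 11.16, and the neurokinin receptor gene Tacr3 read 7.58 on pool 4, against 7.86 to 7.90. In XX there were 5, all of them high values. They were Tmem88b on pool 3 (8.59, against 8.28 to 8.35 on the other XX pools), the brighter Mog probe on pool 2 (11.90, against 11.62 to 11.67), Gal3st1 on pool 3 (10.36, against 9.99 to 10.09), Nmb on pool 1 (8.09, against 7.83 to 7.90) and Evi2a on pool 5 (12.38, against 12.10 to 12.15). Of the 9, 4 were myelin genes in XX, and none was a gene called between XX+T and XX.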

How the results depend on the processing

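The 5 calls depended on the fit. The count was 5 with the authors' log2 values, with probes detected on at least 4 of the 9 arrays and with array weights (unadjusted p below 0.05 for 892, 850 and 713 probes). It was 3 with a trended, robust variance (Klk6, Hcrt, Kiss1) and 3 with no detection filter (Klk6 and Ugt8a among them), 2 with all 12 groups in the fit (Hcrt, Kiss1) and 1 with all 6 groups of the BNST/POA (Ugt8a). It was 0 without XX+T pools 5 and 6, with the day 60 arrays alone, with normexp background correction, with quantile normalization over the 9 arrays and with median centring (480, 597, 865, 604 and 681 probes at an unadjusted p below 0.05). Leaving out 1 array at a time gave 0 to 5 calls. With the pool number as a replicate block there were 0 calls (182 probes at an unadjusted p below 0.05). Whether a number marks a shared litter or batch is not known, so it is not known whether this block belongs in the fit. For treatment by age and treatment by region the count was 0 under every alternative run, the replicate block included, with 209 to 1331 and 79 to 953 probes at an unadjusted p below 0.05. Between XY and XX the count of 3 became 180 with array weights, 2 with the replicate block and 2 to 12 with 1 array left out (12 without XY pool 6). The cause of these shifts was not tested, other than the smaller number of arrays where some were left out. None of the 4 called genes named here changed direction in the 22 alternatives. Where arrays were left out or weighted this was fixed in advance, because the XX+T and XX arrays did not overlap. Fits that changed only the other groups, the filter or the spread model left the fold change as it was. The log2 fold change ranged over 1.96 to 3.21 for Hcrt (3.21 with normexp) and -1.63 to -0.75 for Kiss1. It ranged over -0.70 to -0.36 for Klk6 and -0.53 to -0.44 for Ugt8a. With median centring 332 genes were higher and 131 lower at an unadjusted p below 0.05, against 267 and 339, and the list medians of steroid genes and endothelium were 0.06 and 0.01, above 0. Under alternatives chosen after seeing the data, shifts of list medians were set against the SD of each list mean over the XX pools alone. The median of 22 of 33 lists moved by more than this SD without pools 5 and 6. It did so for 20 lists without pool 6 alone, and for 14 with median centring. The myelin list had 7 to 12 genes lower at an unadjusted p below 0.05 under every alternative run on it (23.3% to 40%). The share of all genes lower ran from 1.37% to 9.5% in the same fits. With 4 pools against 5, and 2 against 5 without the pools that stood apart, small differences may not have been detectable.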

Other observations

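Of 36 genes of programmed cell death listed, 27 were measured and none passed the test over all probes. With all pools 3 were higher (11.1%) and 1 lower (3.7%) at an unadjusted p below 0.05, against 2.79% and 3.54% of all genes, and without pools 5 and 6 there were 1 and 0, against 1.65% and 1.89%, as there were without pool 5 or pool 6 alone. Bcl2, which holds back mitochondrial cell death, read 7.77, 7.96, 8.21 and 8.54 in XX+T pools 2, 4, 5 and 6, against 7.74 to 7.84 in XX, and its relative Bcl2l2 read 10.80, 11.25, 11.39 and 12.05, against 10.71 to 11.15. Both were highest on pools 5 and 6, and their log2 fold changes were 0.33 and 0.45 with all pools, against 0.08 and 0.11 without pools 5 and 6. The 16 genes measured that mark GABA, glutamate and monoamine neurons had 1 higher (6.25%, against 2.79% of all genes) and 0 lower with all pools. Without pools 5 and 6 they had 1 higher and 4 lower (6.25% and 25%, against 1.65% and 1.89%). Without pool 2 alone 3 were higher (18.8%, against 10.1%). Among these, tyrosine hydroxylase (Th), the first enzyme of dopamine synthesis, differed by -0.02 ± 0.12 (SE) with all pools and by -0.35 ± 0.08 (SE) without pools 5 and 6 (limma, adjusted p = 0.525). Of 16 microglial genes measured, 0 were higher and 1 lower with all pools, and 1 was higher and 0 lower without pools 5 and 6. Leaving out XX+T pool 2 alone gave 7 lower (43.8%, against 9.5% of all genes), and leaving out pool 4 alone gave 4 lower (25%, against 6.49%). The 1 higher gene without pools 5 and 6 was the purinergic receptor gene P2ry12, with 0.05 and 0.43.

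Alcam, a cell adhesion molecule, read 9.27, 9.15, 8.97 and 9.28 in XX+T pools 2, 4, 5 and 6, against 9.35 to 9.77 in XX, with a log2 fold change of -0.40 ± 0.11 (SE; limma, adjusted p = 0.632) and -0.36 without pools 5 and 6. Wfdc1, a secreted protein, read 9.39, 9.22, 9.13 and 8.99, against 9.41 to 9.71 in XX (-0.40 ± 0.10 SE, adjusted p = 0.533), and -0.27 without pools 5 and 6. For both, every XX+T pool was below every XX pool, as for 1.13% of all genes. Mcph1, a gene of chromosome condensation, varied among the XX+T pools, at 11.63, 12.39, 9.47 and 10.77, against 11.83 to 12.49 in XX, and it read 7.69 on XY pool 6.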
